A study of Mus musculus with 8 samples.

Results

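The genes that encode glutathione transferases, UDP-glucuronosyltransferases and sulfotransferases were followed in mouse livers after ischemia and reperfusion (I/R). They were chosen by annotation and name, as protein-coding genes whose symbols begin with Gst and a class letter, Mgst, Ugt1 to Ugt3, or Sult, and the rule reads no measured value. This gave 67 of the 54532 genes measured, namely 25 glutathione transferases, 21 UDP-glucuronosyltransferases and 21 sulfotransferases. RNA sequencing had been performed on 8 livers collected after 1 h of partial warm ischemia and 6 h of reperfusion. METTL3-HKD mice (4 livers) carried METTL3 flox/- and Alb-iCre, a recombinase driven by the albumin promoter in hepatocytes, so that their hepatocytes were meant to lose part of METTL3, the RNA m6A methyltransferase. METTL3-Flox mice (4 livers) were METTL3 flox/flox littermates without the recombinase, and in both groups the floxed exon was the fourth. The knockdown was heterozygous, since mice with both alleles deleted in hepatocytes did not survive. All 8 livers had undergone I/R, no sham livers were part of the series, and the age of these mice was not given in the sources used here. The comparison therefore asks how the conjugation enzymes differed between the genotypes in injured liver.

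Conjugation makes drugs, hormones, bile pigments and reactive by-products of oxidation more water soluble, so that they can leave the hepatocyte in bile or blood. Glutathione transferases join glutathione to electrophiles, UDP-glucuronosyltransferases of the endoplasmic reticulum transfer glucuronic acid from its UDP-linked form, and cytosolic sulfotransferases transfer sulfate from the donor PAPS. Many of these genes lie in clusters of close copies, and several are known to be set by nuclear receptors, by the oxidant sensor NRF2 and by the sex-dependent pattern of growth hormone.

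Values were the deposited FPKM (fragments scaled by gene length and by library depth), which are levels per length. For genes that share exons or sequence with others, they are less comparable between genes, since shared reads may not count for each gene. A gene was tested when its mean over the 8 livers reached 0.1 FPKM. Differences are log2 fold changes of METTL3-HKD over METTL3-Flox on the log2(FPKM + 0.1) scale, tested with limma and adjusted after Benjamini and Hochberg over all 16645 genes tested, and a gene was called lower or higher at an adjusted p under 0.05. Where 4 values are given for a group, they stand in the order of its livers 1 to 4. Depth on genes was between 15861245 and 18434488 reads per liver, so that 1 read over 1 kb of gene was worth 0.0497 to 0.0704 FPKM. Mettl3 itself was measured at 1.56, 1.39, 1.17 and 1.198 FPKM in METTL3-HKD and at 1.84, 1.16, 1.45 and 1.54 FPKM in METTL3-Flox, and the groups overlapped (two-sided exact permutation p = 0.371, n = 4 per group). The level of this mRNA in whole liver therefore did not separate the labelled groups. This value covers the whole gene and not the floxed exon alone. From METTL3 expression in major organs, the study reported ablation in the liver of METTL3-HKD mice before I/R. Hepatocyte markers were abundant in all livers, and their 9 genes summed to 23697 to 34640 FPKM in METTL3-HKD and 31177 to 35795 FPKM in METTL3-Flox.

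Of the 67 conjugation enzymes, 48 were tested, and 10 of these were called. Levels of 7 rose and levels of 3 fell in METTL3-HKD, or 14.6% and 6.25% of those tested, while 9.05% of all genes tested were called higher and 6.63% were called lower. The genes that rose were Sult1e1, Sult1d1, Gsta1, Gsta2, Gsta4, Ugt1a7c and Ugt2b37, and those that fell were Ugt2b5, Ugt1a6a and Sult5a1. With a further threshold of a log2 fold change of at least 1, 5 of the 48 were higher and 1 of the 48 was lower, against 4.7% and 1.52% of all genes. The higher count was 4 to 6 over the 16 alternatives, and the lower count was 0 in 10 of them, those without METTL3-Flox liver 1, 2, 3 or 4 or METTL3-HKD liver 2 included, and 2 with voom on rebuilt reads. Most of the others lay below 0 without a call, since 33 of the 48 log2 fold changes were negative and their median was -0.33, beside a median of -0.0028 for all genes tested. At an unadjusted p under 0.05, limma gave 14 lower and 8 higher members. The 4 livers of each group did not overlap for 6 members that were lower and 6 that were higher, which is 12.5% of the tested members each way and close to the 9.95% and 12.7% of all genes. The share called lower was thus near the background. The share called higher lay above it, but it rests on 7 genes, among them Gsta1 and Gsta2, which share sequence. Whether the 2 shares differ was not tested. With libraries scaled to the reads on genes, 8 of the 48 members were higher and 0 lower, beside 2303 (13.8%) and 374 (2.25%) of all genes. The share of higher members was thus closer to that of all genes under this scaling. Relative to the shift of the median gene under that scaling, Ugt2b5, Ugt1a6a and Sult5a1 stood at -0.52, -1.16 and -0.91.

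**Figure D1:**
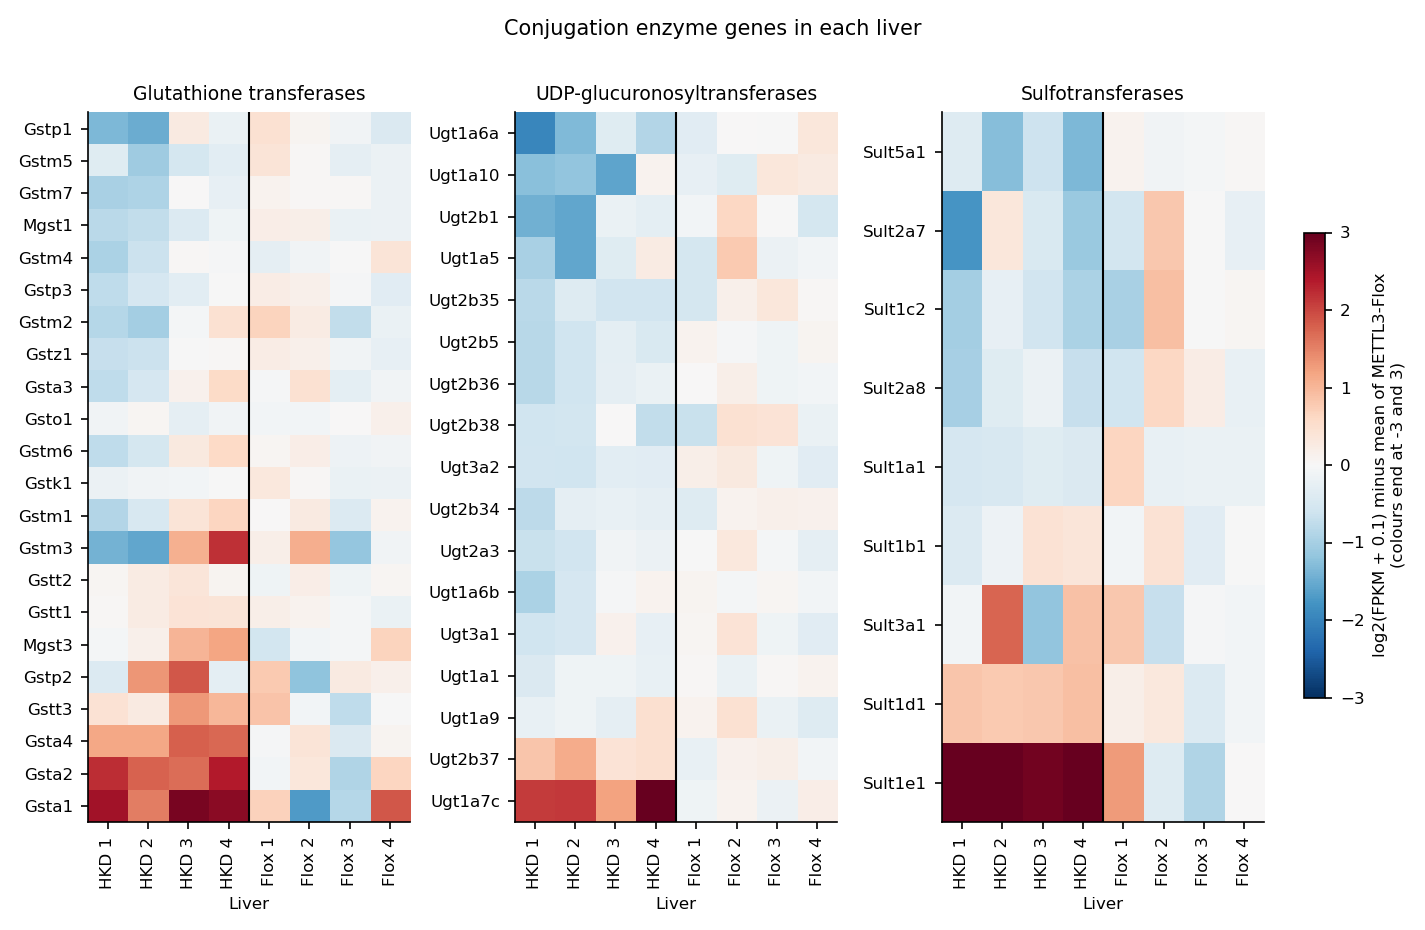
Level of each tested conjugation enzyme in each liver, as log2(FPKM + 0.1) minus the mean of the 4 METTL3-Flox livers, with 1 panel per family, 1 row per gene ordered by log2 fold change and 1 column per liver (HKD 1 to 4 left of the line, Flox 1 to 4 right of it). Most blue rows are deepest in HKD 1 and HKD 2, while Gsta1, Gsta2, Gsta4, Ugt1a7c, Sult1d1 and Sult1e1 are red in all 4 HKD columns.

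By family, the shares called stand beside 9.05% higher and 6.63% lower of all genes tested, and each rests on a small count. Among the 22 tested glutathione transferases, 3 rose (13.6%), none fell and 13 log2 fold changes were negative. Of 17 UDP-glucuronosyltransferases, 2 rose (11.8%), 2 fell (11.8%) and 15 were negative. Of 9 sulfotransferases 2 rose (22.2%), 1 fell (11.1%) and 5 were negative. The median log2 fold change was -0.46 for UDP-glucuronosyltransferases and -0.44 for sulfotransferases. For glutathione transferases it was -0.10, and it turned to 0.05 with array quality weights, to 0.07 without METTL3-HKD liver 1, to 0.01 without METTL3-HKD liver 2, and to 0.12 when libraries were scaled to the reads on genes. That scaling moved the median of all genes to 0.193, and relative to this shift the family medians were -0.07 for glutathione transferases, -0.44 for UDP-glucuronosyltransferases and -0.42 for sulfotransferases. Summed over a family on the deposited scale, UDP-glucuronosyltransferases reached 596, 687, 883 and 847 FPKM in METTL3-HKD and 1040, 1208, 1019 and 984 FPKM in METTL3-Flox, without overlap. Scaling to the reads on genes divides each liver by a factor. These factors were 0.862, 0.869, 0.9905 and 0.998 in METTL3-HKD and 1.198, 1.075, 1.05 and 0.998 in METTL3-Flox. Divided in this way, METTL3-HKD liver 3 passes METTL3-Flox liver 1, so the separation depends on the scaling. The sums of glutathione transferases (2010 to 3762 against 3174 to 4310 FPKM) and of sulfotransferases (281 to 315 against 255 to 372 FPKM) overlapped. These sums rest on few genes, since Mgst1 made up 46.1% of the first family's total, Ugt2b5 32.4% of the second and Sult1a1 52.4% of the third. In whole liver, fewer cells of a type and less RNA per cell cannot be told apart.

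**Figure D2:**
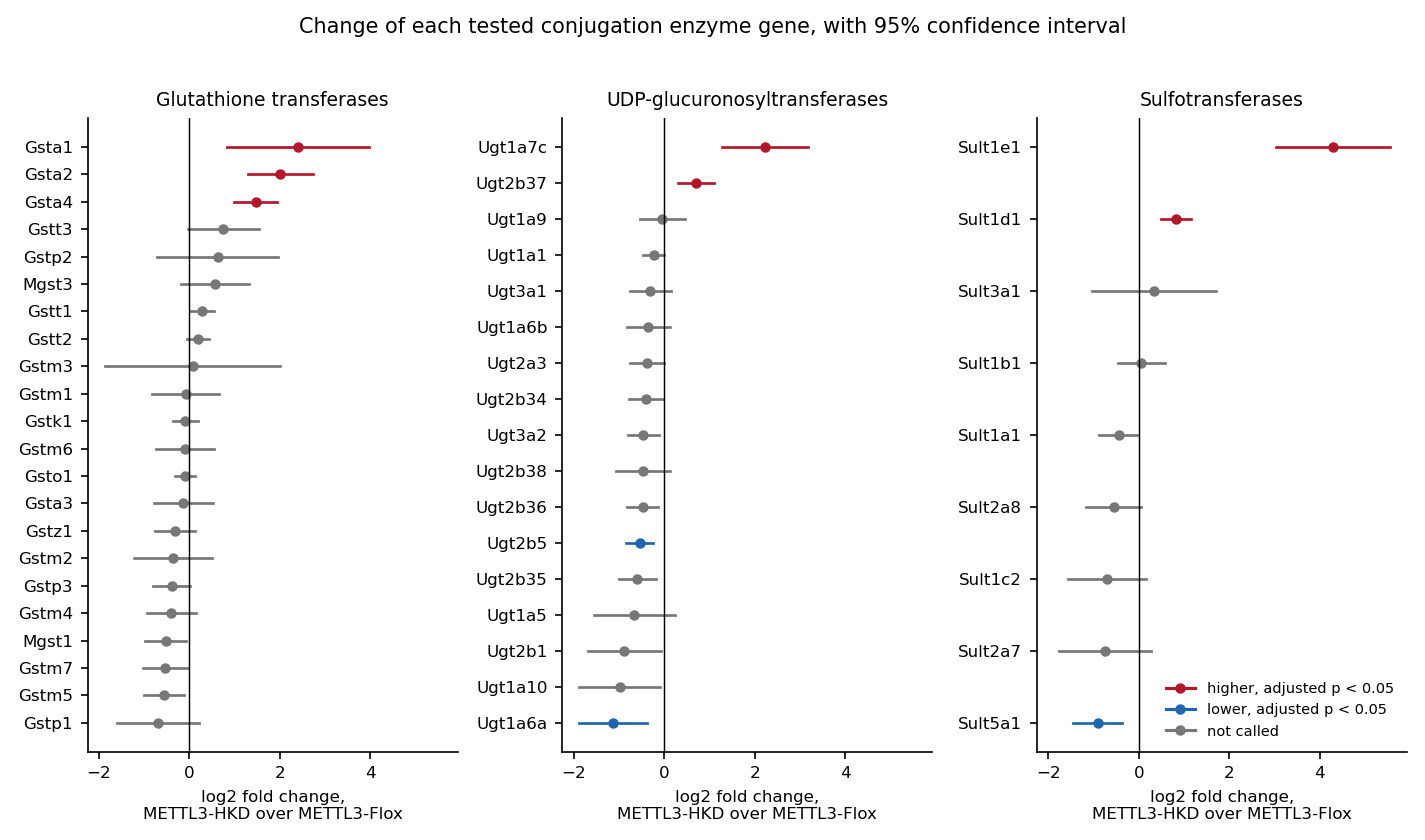
Log2 fold change of METTL3-HKD over METTL3-Flox with its 95% confidence interval from limma for each tested member, ordered within its family. Most intervals of the UDP-glucuronosyltransferases lie left of 0 or end near it, and the interval of Sult1e1 runs from 3.03 to 5.56.

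The 3 glutathione transferases that rose were all of the alpha class. Gsta4, which is best known for conjugating lipid peroxidation products such as hydroxynonenal, was measured at 19.8, 19.8, 30.5 and 29.1 FPKM in METTL3-HKD and at 8.50, 11.5, 6.39 and 9.32 FPKM in METTL3-Flox. Every METTL3-HKD liver was above every METTL3-Flox liver, with means of 24.8 ± 5.82 and 8.93 ± 2.11 FPKM (SD, n = 4) and a log2 fold change of 1.46 (SE 0.210, limma adjusted p = 0.00523). Gsta2 had 16.3, 11.9, 11.2 and 18.2 FPKM in METTL3-HKD and 3.23, 4.42, 1.79 and 5.44 FPKM in METTL3-Flox. Its mean level was 3.88 times as high in METTL3-HKD, again without overlap, and the log2 fold change was 2.01 (SE 0.317, limma adjusted p = 0.00724). Gsta1 had 24.4, 12.3, 30.7 and 27.9 FPKM against 6.85, 1.23, 2.27 and 15.5 FPKM. METTL3-Flox liver 4 exceeded METTL3-HKD liver 2, and the log2 fold change of 2.39 (SE 0.695) passed narrowly (limma adjusted p = 0.0481). On FPKM the two-sided exact permutation test gave p = 0.0571 for Gsta1, and 0.0286 for Gsta2 and Gsta4, the smallest p that 4 against 4 livers allow. The call of Gsta1 was lost when any liver other than METTL3-Flox liver 4 was left out (limma adjusted p up to 0.12), while those of Gsta2 and Gsta4 held without each of the 8 livers.

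Gsta1 and Gsta2 are neighbours on chromosome 9 of GRCm38, at chr9:78230656-78242684 on the plus strand and chr9:78331018-78355788 on the minus strand, and Gsta4 lies near them at chr9:78182774-78209349. Of the distinct stretches of 50 bases in the annotated transcripts of Gsta1, 90.5% also occur in another gene, chiefly Gm3776, Gsta2 and Gm10639, against 49.8% for Gsta2 and 0 for Gsta4. How reads shared by such copies were counted is not given in the sources used here, so the split of signal between Gsta1 and Gsta2 is uncertain. Gm3776, a near copy that the name rule does not reach, had 8.36, 5.76, 12.5 and 12.3 FPKM in METTL3-HKD and 2.98, 1.06, 0.753 and 5.69 FPKM in METTL3-Flox, with each METTL3-HKD value above each METTL3-Flox value. The likeness of the pair extends upstream, and it is shown here because both genes rose. The 250 bases before the RefSeq start of each gene, at chr9:78230419-78230668 (plus strand) and chr9:78347146-78347395 (minus strand) of GRCm38.p6, were identical at 71.4% of aligned positions, and the capitals mark their longest identical run, of 29 bases.
Gsta1: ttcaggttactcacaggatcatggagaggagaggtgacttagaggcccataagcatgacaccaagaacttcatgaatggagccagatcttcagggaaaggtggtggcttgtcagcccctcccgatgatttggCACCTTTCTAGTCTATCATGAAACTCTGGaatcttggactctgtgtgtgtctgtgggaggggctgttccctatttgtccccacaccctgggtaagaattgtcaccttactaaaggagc
Gsta2: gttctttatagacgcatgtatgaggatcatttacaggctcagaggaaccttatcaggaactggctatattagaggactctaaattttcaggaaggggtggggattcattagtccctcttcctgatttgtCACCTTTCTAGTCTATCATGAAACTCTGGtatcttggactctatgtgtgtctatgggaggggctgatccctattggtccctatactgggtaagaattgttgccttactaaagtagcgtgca

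The most abundant glutathione transferases were not called. Mgst1, the membrane-bound microsomal enzyme, had 1010, 1056, 1331 and 1600 FPKM in METTL3-HKD and 2015, 1990, 1534 and 1568 FPKM in METTL3-Flox (log2 fold change -0.52, limma adjusted p = 0.108). METTL3-HKD livers 1, 2 and 3 were below all METTL3-Flox livers, and METTL3-HKD liver 4 was among them. Gstp1, the pi class enzyme, had 393, 359, 1223 and 880 FPKM against 1376, 1071, 933 and 753 FPKM (log2 fold change -0.69, limma adjusted p = 0.265). Here METTL3-HKD livers 1 and 2 stood far below the METTL3-Flox range and livers 3 and 4 lay inside it. The mu class enzyme Gstm1 had 203, 266, 486 and 579 FPKM against 379, 452, 283 and 401 FPKM, so that the METTL3-HKD livers fell on both sides of the METTL3-Flox livers (log2 fold change -0.09, limma adjusted p = 0.885). The same division was seen for Gsta3, an alpha class enzyme on chromosome 1, with 63.2, 75.6, 116 and 159 FPKM against 103, 145, 87.4 and 98.4 FPKM (log2 fold change -0.14, limma adjusted p = 0.781). Gstm1 and Gsta3 changed sign when libraries were scaled to the reads on genes, to 0.13 and 0.08, but not relative to the shift of all genes. Gstt1, a theta class enzyme that acts on small halogenated compounds, had 72.6, 82.9, 93.0 and 92.6 FPKM against 79.1, 75.1, 67.1 and 61.3 FPKM. Its log2 fold change was 0.27 (limma adjusted p = 0.155), and it was called at 0.49 when libraries were scaled to the reads on genes (limma adjusted p = 0.0101). By class, 6 of 7 mu, 2 of 3 pi and 0 of 3 theta log2 fold changes were negative. The median of the 22 glutathione transferases in each liver, relative to the mean of METTL3-Flox on the log2 scale, was -0.55, -0.49, 0.29 and 0.24 in METTL3-HKD livers 1 to 4, against -0.17 to 0.17 in METTL3-Flox. METTL3-HKD livers 1 and 2 were thus below the METTL3-Flox range and livers 3 and 4 above it, a spread within the group that a mean hides.

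UDP-glucuronosyltransferases were mostly lower without passing the test one by one. Ugt2b5, the most abundant of the Ugt2b enzymes, which act on steroids, bile acids and drugs, had 193, 230, 284 and 254 FPKM in METTL3-HKD and 371, 338, 315 and 366 FPKM in METTL3-Flox. The groups did not overlap, and the level fell from 347 ± 25.7 to 240 ± 38.4 FPKM (SD, n = 4; log2 fold change -0.54, SE 0.136, limma adjusted p = 0.0306). Ugt2b36 had 98.6, 116, 146 and 154 FPKM against 179, 200, 161 and 167 FPKM, also without overlap, but was not called (log2 fold change -0.48, limma adjusted p = 0.0666). Ugt2b1 had 48.4, 44.4, 113 and 107 FPKM against 124, 203, 130 and 91.0 FPKM, and METTL3-HKD livers 1 and 2 stood apart (log2 fold change -0.88, limma adjusted p = 0.131). Ugt2b34 had 40.3, 58.2, 59.9 and 57.8 FPKM against 53.7, 75.3, 78.2 and 76.1 FPKM, with liver 1 lowest in both groups (log2 fold change -0.39, limma adjusted p = 0.144). Ugt3a2, of a family that uses other sugars in place of glucuronic acid, had 65.6, 64.6, 79.6 and 77.5 FPKM against 110, 121, 90.2 and 77.8 FPKM. Its groups met between METTL3-HKD liver 3 and METTL3-Flox liver 4, and the log2 fold change of -0.46 was not called (limma adjusted p = 0.0698), though it was without METTL3-Flox liver 4 (-0.57, limma adjusted p = 0.0447). In the median of the 17 tested members relative to the mean of METTL3-Flox, METTL3-HKD livers 1 to 4 stood at -0.80, -0.55, -0.22 and -0.23 on the log2 scale, all below the -0.08 to 0.15 of METTL3-Flox. This holds for the deposited scale. Scaling to the reads on genes divides METTL3-Flox liver 1 by 1.198, and METTL3-HKD livers 3 and 4 by 0.9905 and 0.998. That places METTL3-Flox liver 1 below METTL3-HKD livers 3 and 4, so the groups then overlap.

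Ugt2b37 moved the other way from its neighbour Ugt2b5. It had 7.32, 8.94, 5.38 and 5.65 FPKM in METTL3-HKD and 3.46, 4.44, 4.62 and 3.80 FPKM in METTL3-Flox, so that it rose without overlap from a low level (log2 fold change 0.71, SE 0.175, limma adjusted p = 0.0292). Ugt2b37 was the only one of the 7 Ugt2b genes with a positive log2 fold change. The 2 genes share part of their sequence, since 41.7% of the 50-base stretches of Ugt2b5 and 18.3% of those of Ugt2b37 occur in another gene, mainly Ugt2b38, Ugt2b5 or Ugt2b37, and some reads may have been assigned to the wrong copy. Their upstream regions are printed because close copies changed in opposite directions. They lie on the minus strand at chr5:87140341-87140590 for Ugt2b5 and chr5:87254789-87255038 for Ugt2b37, in GRCm38.p6 from RefSeq, and were identical at 73.0% of aligned positions. The capitals mark the longest identical run, of 68 bases, which ends at position -1 before the start of Ugt2b5 and at position -18 before that of Ugt2b37.
Ugt2b5: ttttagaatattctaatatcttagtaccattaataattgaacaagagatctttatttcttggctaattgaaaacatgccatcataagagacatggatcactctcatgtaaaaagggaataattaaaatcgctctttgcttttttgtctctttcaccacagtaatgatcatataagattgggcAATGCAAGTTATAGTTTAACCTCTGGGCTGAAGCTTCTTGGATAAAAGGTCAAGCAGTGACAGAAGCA
Ugt2b37: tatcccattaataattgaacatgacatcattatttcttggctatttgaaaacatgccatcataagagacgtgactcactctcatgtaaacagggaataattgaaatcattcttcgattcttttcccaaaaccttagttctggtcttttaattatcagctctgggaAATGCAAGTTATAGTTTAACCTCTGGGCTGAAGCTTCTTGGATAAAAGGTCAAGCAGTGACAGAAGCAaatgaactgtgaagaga

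At the Ugt1a locus, Ugt1a6a fell and Ugt1a7c rose, both at low levels. Ugt1a6a, of the Ugt1a6 enzymes for simple phenols, had 0.150, 0.289, 0.655 and 0.424 FPKM in METTL3-HKD and 0.669, 0.876, 0.870 and 1.12 FPKM in METTL3-Flox. The groups did not overlap, though METTL3-HKD liver 3 came close to METTL3-Flox liver 1, and the log2 fold change was -1.13 (SE 0.330, limma adjusted p = 0.0486). Ugt1a7c had 0.766, 0.782, 0.367 and 2.09 FPKM against 0.0834, 0.117, 0.0780 and 0.133 FPKM. All METTL3-HKD values were above all METTL3-Flox values, and the log2 fold change was 2.22 (SE 0.421, limma adjusted p = 0.0125), where the METTL3-Flox values rest on 5 to 9 reads per liver. The size of both changes depends on the pseudocount, since with 1 FPKM they were 0.79 for Ugt1a7c and -0.46 for Ugt1a6a, both still called. Ugt1a1, the enzyme for bilirubin, was not called, with 21.2 ± 2.06 FPKM in METTL3-HKD and 24.9 ± 2.25 FPKM in METTL3-Flox (SD, n = 4; log2 fold change -0.23, 95% confidence interval -0.46 to 0.01, limma adjusted p = 0.168), and it is given here outside the naming rule for its role. All 9 Ugt1a genes splice their own first exon to the same downstream exons. With these and other overlapping exons, 54.6% of the exon bases of Ugt1a7c and 50.3% of those of Ugt1a6a belong to other Ugt1a genes as well. Reads from these bases do not tell the genes apart, and how they were counted is not given in the sources used here. They were not counted for every Ugt1a gene, since Ugt1a8, with 59.2% of its exon bases shared, was listed at 0 in all livers. Exon 2 of Ugt1a1, at chr1:88215044-88215175 of GRCm38 on the plus strand, is coding and common to all 9 genes. Its first 60 bases, from GENCODE M21 transcripts, are printed as an example of sequence that every Ugt1a mRNA carries.
Ugt1a exon 2: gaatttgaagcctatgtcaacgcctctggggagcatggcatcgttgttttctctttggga

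**Figure D3:**
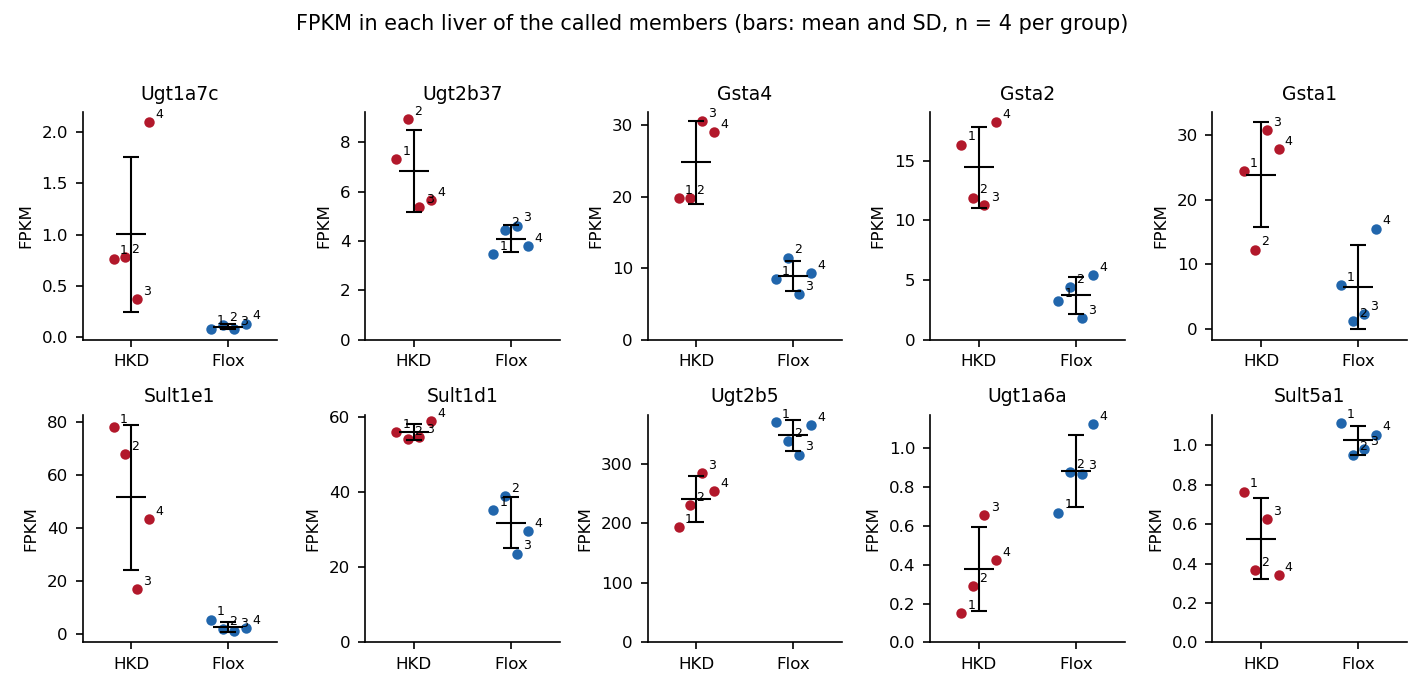
FPKM of the 10 called members in each liver (points, numbered by replicate), with the mean and SD of each group of 4 livers; every axis begins at or below 0. The groups are separate in each panel but that of Gsta1, and METTL3-HKD livers 1 and 2 are highest for Sult1e1 and Ugt2b37.

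The largest change in all 48 tested members was that of Sult1e1, which encodes the estrogen sulfotransferase that inactivates estrogens by adding sulfate. Sult1e1 was measured at 78.1, 67.9, 16.8 and 43.4 FPKM in METTL3-HKD and at 5.38, 1.64, 1.11 and 2.20 FPKM in METTL3-Flox. The lowest METTL3-HKD liver was above the highest METTL3-Flox liver, although values within METTL3-HKD ranged widely. Mean levels were 51.6 ± 27.3 and 2.58 ± 1.92 FPKM (SD, n = 4), a ratio of 19.9, and the log2 fold change was 4.29 (SE 0.560, limma adjusted p = 0.00389). It lay on the minus strand at chr5:87575969-87591594, next to Sult1d1 at chr5:87554645-87569027. Sult1d1, a sulfotransferase for catecholamines and other small phenols in rodents, had 56.0, 54.1, 54.7 and 58.8 FPKM in METTL3-HKD and 35.3, 39.0, 23.6 and 29.6 FPKM in METTL3-Flox. Its METTL3-HKD livers were close to each other and all above METTL3-Flox (log2 fold change 0.83, SE 0.147, limma adjusted p = 0.0102). Both calls held without each of the 8 livers, and neither gene shares a 50-base stretch with another gene. The upstream 250 bases of Sult1e1 (RefSeq, chr5:87591612-87591861 of GRCm38.p6, minus strand) are shown as those of the member with the largest change, and Sult1d1 (chr5:87569007-87569256, minus strand) as its neighbour. The longest run that both share has 8 bases, so no letters are set in capitals.
Sult1e1: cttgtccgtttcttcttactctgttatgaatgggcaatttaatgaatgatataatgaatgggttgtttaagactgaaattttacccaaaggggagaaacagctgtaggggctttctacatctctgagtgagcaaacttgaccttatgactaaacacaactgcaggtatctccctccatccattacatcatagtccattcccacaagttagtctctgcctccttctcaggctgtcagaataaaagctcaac
Sult1d1: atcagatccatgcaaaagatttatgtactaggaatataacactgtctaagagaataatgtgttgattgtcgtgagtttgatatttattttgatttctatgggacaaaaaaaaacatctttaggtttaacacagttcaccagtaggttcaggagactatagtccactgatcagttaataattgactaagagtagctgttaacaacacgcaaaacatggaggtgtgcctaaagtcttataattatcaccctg

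Among the other sulfotransferases, Sult5a1 fell. This gene of unknown substrate had 0.765, 0.367, 0.626 and 0.341 FPKM in METTL3-HKD and 1.11, 0.952, 0.982 and 1.05 FPKM in METTL3-Flox, without overlap (log2 fold change -0.91, SE 0.237, limma adjusted p = 0.0350). With a pseudocount of 1 FPKM the log2 fold change was -0.42 and still called. Sult1a1, the main enzyme for phenols and the most abundant sulfotransferase, had 125, 127, 137 and 130 FPKM against 276, 151, 153 and 153 FPKM. Although each METTL3-HKD value was lower than each METTL3-Flox value, METTL3-Flox liver 1 stood alone at the top and the log2 fold change of -0.44 was not called (limma adjusted p = 0.150). Without METTL3-Flox liver 1 it was -0.23. Sult2a8, an enzyme for bile acids, had 36.0, 56.5, 64.1 and 44.9 FPKM against 47.8, 111, 83.9 and 61.7 FPKM, with overlap (log2 fold change -0.56, limma adjusted p = 0.194). Sult1b1, known for thyroid hormones and phenols, had 2.83, 3.37, 5.14 and 4.90 FPKM against 3.54, 5.16, 2.96 and 3.73 FPKM and lay on both sides of the METTL3-Flox values (log2 fold change 0.06, limma adjusted p = 0.886). Of the 21 sulfotransferases, 12 were below the minimum for testing, among them 7 of 9 Sult2 genes, and 5 were listed at 0 in all livers.

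The calls of Ugt2b5, Ugt1a6a, Ugt2b37 and Sult5a1 depended on which liver was left out. Those of Ugt2b5 and Ugt1a6a were lost when any liver other than METTL3-HKD liver 3 was left out, with limma adjusted p up to 0.0761 and 0.116. That of Ugt2b37 was lost without any of the METTL3-Flox livers and without METTL3-HKD liver 1 or 2 (limma adjusted p up to 0.0782), and that of Sult5a1 without any of the METTL3-Flox livers and without METTL3-HKD liver 2 or 4 (up to 0.0842). The count of lower members was 0 to 4 over the 8 fits, being 0 without METTL3-Flox liver 2 or 3 or METTL3-HKD liver 2. It was 1 without METTL3-HKD liver 1, where Sult5a1 remained. It was also 1 without METTL3-Flox liver 1 or 4 or METTL3-HKD liver 4, from a UDP-glucuronosyltransferase not called with all 8 livers. Over the same 8 fits the share of all genes called lower was 2.13% to 6.89%. The direction of these 4 genes was the same in every fit, and Sult1e1, Sult1d1, Gsta2, Gsta4 and Ugt1a7c were called in each of them.

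**Figure D4:**
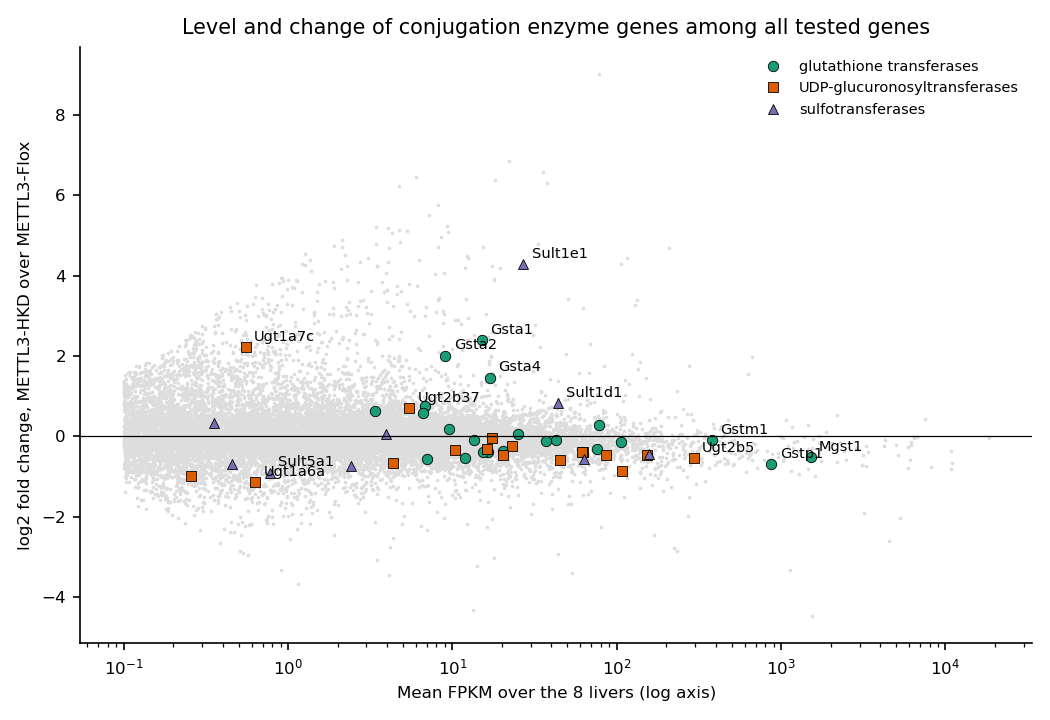
Mean FPKM over the 8 livers (log axis) and log2 fold change of the tested members by family, over all 16645 genes tested in grey. Abundant members such as Mgst1, Gstp1 and Ugt2b5 lie below 0, and Sult1e1 lies at 4.29 among the largest changes of genes at its level.

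Some neighbouring genes had log2 fold changes of the same sign and others did not. On chromosome 5, 13 members lie between 86889767 and 87591594, in the order Ugt2b34, Ugt2b1, Ugt2b35, Ugt2b36, Ugt2b5, Ugt2b37, Ugt2a3, Ugt2b38, Ugt2a2, Ugt2a1, Sult1b1, Sult1d1 and Sult1e1. The first 5 had log2 fold changes of -0.39 to -0.88, Ugt2b37 stood at 0.71, and Ugt2a3 and Ugt2b38 were at -0.38 and -0.46, while Ugt2a1 and Ugt2a2 were listed at 0 in all livers. At the far end of the cluster, Sult1b1, Sult1d1 and Sult1e1 followed at 0.06, 0.83 and 4.29. The 7 mu class genes on chromosome 3 ran from -0.57 to 0.07 with no call. Within the 9 Ugt1a genes, Ugt1a7c and Ugt1a6a, which lie with only Ugt1a6b between them, had log2 fold changes of 2.22 and -1.13.

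**Figure D5:**
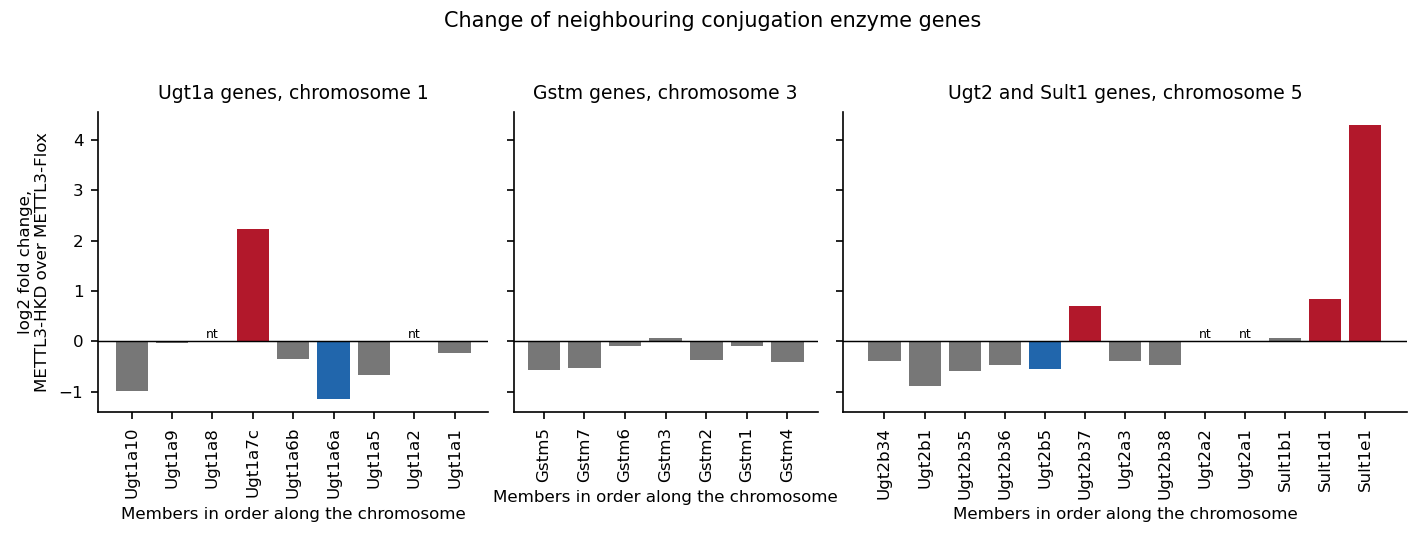
Log2 fold change of METTL3-HKD over METTL3-Flox for members in order along chromosomes 1, 3 and 5 (bars; red called higher, blue called lower, grey not called, nt not tested). Ugt2b37 rises between neighbours with negative values, and Sult1d1 and Sult1e1 end the chromosome 5 cluster.

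The 250 bases upstream of the start were found in the RefSeq table for 59 of the 67 members, including all 3 that fell and all that rose but Gsta4, and were searched on both strands for 5 known binding patterns. These members had 71 windows, since 11 had more than 1 start, and shares are of windows. TGACNNNGC, the core of the antioxidant response element that NRF2 binds, occurred in 5.63% of the 71 windows and in 10.2% of all 32851 promoter windows of this length. TGANTCA, the AP-1 pattern, occurred in 16.9% of the 71 and in 6.75% of all, among them those of Ugt2b37, at position -180, and of Ugt1a6a, at position -124. TTGCNNAA, a C/EBP pattern, occurred in 15.5% of the 71 and 9.56% of all, TTCNNNGAA, a pattern of STAT5 and BCL6, in 5.63% and 7.02%, and GCGTG, the core of the xenobiotic response element, in 16.9% and 28.2%. TGACNNNGC was in the window of none of the 6 matched genes that rose and none of the 3 that fell, which says only that these letters are not in these windows.

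Genes that supply glutathione were called in both directions. Of 15 tested, 5 rose and 4 fell, or 33.3% and 26.7% beside 9.05% and 6.63% of all genes, with a median log2 fold change of -0.05. Slc7a11, the cystine importer, had 2.20, 0.439, 0.744 and 1.46 FPKM in METTL3-HKD and 0, 0.0533, 0.00472 and 0.00892 FPKM in METTL3-Flox, so the METTL3-Flox livers were at or near 0 (limma adjusted p = 0.00412). Gclc, the catalytic subunit of the rate-limiting ligase of glutathione synthesis, had 226, 227, 89.9 and 118 FPKM against 42.1, 44.5, 78.9 and 74.5 FPKM (log2 fold change 1.40, limma adjusted p = 0.0287). Its regulatory subunit Gclm went the other way, from 54.0 ± 6.00 FPKM in METTL3-Flox to 37.7 ± 4.47 FPKM in METTL3-HKD (SD, n = 4; log2 fold change -0.52, limma adjusted p = 0.0229). Gsr, which reduces oxidised glutathione, rose (0.69, limma adjusted p = 0.0364), and Cth and Cbs, the enzymes of cysteine synthesis from homocysteine, fell (-0.76 and -0.78, limma adjusted p = 0.0117 and 0.0340). The others called were Chac2, a glutathione-degrading enzyme, which fell from 15.2 ± 1.02 to 7.81 ± 2.20 FPKM (SD, n = 4; limma adjusted p = 0.0153), and the exporter Abcc4 and the cyclotransferase Ggct, which rose (0.95 and 0.76, limma adjusted p = 0.0454 and 0.0472).

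Among 8 genes of UDP-glucuronate supply and deconjugation, 1 fell (12.5%, against 6.63% of all genes) and none rose. This was Slc35d1, which carries UDP-glucuronate into the endoplasmic reticulum, with 9.74, 9.71, 10.4 and 10.4 FPKM in METTL3-HKD and 13.4, 18.2, 18.4 and 16.4 FPKM in METTL3-Flox, without overlap (log2 fold change -0.70, limma adjusted p = 0.00740). Ugdh, which makes UDP-glucuronate, was not called (-0.08, limma adjusted p = 0.782). Of 11 genes of PAPS supply and desulfation, 3 fell (27.3%, against 6.63% of all genes) and 1 rose (9.09%, near the 9.05% of all genes). Suox, the sulfite oxidase, the sulfate transporter Slc26a1 and the phosphatase Bpnt1 fell (-0.58, -1.05 and -0.33, limma adjusted p = 0.0123, 0.0369 and 0.0420), and the Golgi phosphatase Impad1 rose (0.63, limma adjusted p = 0.0126). Both PAPS synthases, Papss1 and Papss2, were not called (-0.19 and 0.18, limma adjusted p = 0.168 and 0.634).

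Of 19 other conjugating enzymes, 5 fell (26.3%, against 6.63% of all genes) and none rose (9.05% of all genes), with a median log2 fold change of -0.40. They included the medium-chain acyl-CoA synthetases Acsm5, Acsm3 and Acsm1 (-0.99, -0.79 and -0.77, limma adjusted p = 0.0108, 0.0120 and 0.0354), which prepare acids for glycine conjugation, and the arylamine acetyltransferase Nat2 (-0.60, limma adjusted p = 0.0226). Of 22 tested receptors and factors known to set conjugation genes, 5 fell (22.7%, against 6.63% of all genes) and 2 rose (9.09%, near the 9.05% of all genes). Cebpa, a hepatocyte transcription factor, had 67.7, 112, 117 and 94.6 FPKM against 169, 189, 169 and 196 FPKM, and every METTL3-HKD liver was lower (-0.91, limma adjusted p = 0.0115). Hnf4a (-0.48, limma adjusted p = 0.0187), the bile acid receptor Nr1h4 (-0.92, limma adjusted p = 0.0190), Rxra (-0.45, limma adjusted p = 0.0263) and Keap1, the inhibitor of NRF2 (-0.35, limma adjusted p = 0.0384), also fell. Nfe2l2, which encodes NRF2, had 17.8, 18.3, 14.1 and 15.3 FPKM against 9.88, 11.5, 11.9 and 12.7 FPKM and rose (0.51, limma adjusted p = 0.0228), as did the cytochrome P450 reductase Por (0.77, limma adjusted p = 0.0434).

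Markers of other cells differed between the same livers. The counts of this paragraph stand beside 9.05% higher and 6.63% lower of all genes tested. All 8 neutrophil markers rose and summed to 1630, 383, 333 and 549 FPKM in METTL3-HKD and to 13.1 to 44.9 FPKM in METTL3-Flox, where Ly6g was at 0 in part of the livers. Of 6 tested cholangiocyte markers, 4 rose (66.7%, sums of 124 to 372 against 56.6 to 82.9 FPKM), and of 6 Kupffer cell markers 4 fell (66.7%, sums of 62.6 to 140 against 140 to 347 FPKM). Endothelial markers (1 of 6 or 16.7% lower, sums of 50.8 to 57.5 against 56.2 to 66.4 FPKM) and stellate cell markers (1 of 6 or 16.7% lower and 2 or 33.3% higher, sums of 38.0 to 51.2 against 32.5 to 56.0 FPKM) had overlapping sums. None of 9 hepatocyte markers was called, but all 9 log2 fold changes were negative with a median of -0.41, and their sums of 23697, 25354, 32486 and 34640 FPKM in METTL3-HKD were lowest in livers 1 and 2. Those livers were also the lowest of all 8 for Mgst1, Gstp1, Gstm1, Gsta3, Ugt2b1 and Ugt2b5. None of 10 pericentral genes was called, and 1 of 10 periportal genes (10%), Aldh1b1, was called lower, both with overlapping sums (1962 to 2859 against 2522 to 3617 FPKM, and 1517 to 2837 against 2616 to 2892 FPKM). Of 8 genes more active in male liver, 2 fell (25%, Cyp2d9 and Cyp4a12a, sums of 788 to 2338 against 1455 to 3050 FPKM), and of 5 tested genes more active in female liver 4 rose (80%, sums of 1.77 to 21.7 against 0.524 to 1.19 FPKM), although all 8 livers held transcripts of the Y chromosome. The part of these differences in the levels of the conjugation enzymes was not tested.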

How the data were processed

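Livers of 4 METTL3-HKD and 4 METTL3-Flox mice were compared, grouped by their labels, which name each replicate as a numbered mouse and say no more of it. The p-values weigh the difference between the groups against the spread between these livers. The authors deposited FPKM per gene and the gene lengths behind them; the submitters' processing notes name GRCm38 (mm10), and the aligner, the counting and the strand setting are not given in the sources used here. FPKM times length gave whole reads for 100% of non-zero values (within 0.05 of a whole read), from which depth was taken (15861245 to 18434488 reads on genes). The effective library sizes showed that libraries had been scaled to each other before deposition. Of the identifiers, 54409 were in GENCODE M21, and 27 symbols that had been turned into dates were restored from it.

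The 16645 genes whose mean reached 0.1 FPKM were log2-transformed with a pseudocount of 0.1 FPKM and fitted with limma 3.58.1 (R 4.3.3, lmFit, then eBayes with trend), and p-values were adjusted after Benjamini and Hochberg. Named members were also compared by two-sided exact permutation of FPKM over all 70 arrangements (numpy 2.4.6, Python 3.11.15). The fit was tested on simulated data. Alternatives were a pseudocount of 1 FPKM, a minimum of 1 FPKM or none, scaling to the reads on genes, voom on rebuilt reads, no trend, array quality weights, a replicate block and the omission of each liver in turn. All called members are named, and values in each liver are given for these and for the 5 most abundant members of each family; called genes of the other lists are named up to 6 a list, except 1 gene that is not reported here. The name rule that picked the members reads no measured value, but these families, the members and the lists were chosen with earlier results of these data known. Replicate numbers were checked for pairing and did not pair the livers.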

Additional observations from a re-analysis of the deposited data

Results flagged for a closer look

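In 44 groups of 4 livers, formed by the 22 conjugation enzymes with values given for each liver, 3 held a liver that stood far from the other 3 by Dixon's ratio, the gap to the nearest liver over the whole range, while chance gives about 5% of groups. Ugt2b34 in METTL3-HKD was lowest in replicate 1, at 40.3 FPKM beside 57.8 to 59.9 FPKM in the others, with a ratio of 0.891. Ugt2b34 in METTL3-Flox was also lowest in replicate 1, at 53.7 FPKM beside 75.3 to 78.2 FPKM, with a ratio of 0.881. Sult1a1 in METTL3-Flox was highest in replicate 1, at 276 FPKM beside 151 to 153 FPKM, with a ratio of 0.982.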

How the results depend on the processing

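Sult1e1, Sult1d1, Gsta2 and Gsta4 kept their direction and call in all 16 alternatives, and Ugt1a7c in all 15 in which it was tested, though its log2 fold change (2.22) ran from 0.79 with a pseudocount of 1 FPKM to 2.94 with voom on rebuilt reads. The count of higher members (7) was 5 to 8 over the alternatives. The count of lower members (3) fell to 0 with no minimum and with libraries scaled to the reads on genes, and was 0 to 4 when livers were left out. For glutathione transferases it was 0, and 0 to 1 with livers left out. For UDP-glucuronosyltransferases, the lower count of 2 was 0 with no minimum and with libraries scaled to the reads on genes, 1 with no trend and 0 to 2 with livers left out, and the higher count of 2 was 1 with a minimum of 1 FPKM, which leaves Ugt1a7c untested, and 1 to 2 with livers left out. For sulfotransferases, the lower count of 1 was 0 with a minimum of 1 FPKM, which leaves Sult5a1 untested, with no minimum or with libraries scaled to the reads on genes, and 0 to 1 with livers left out.

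The median log2 fold change of glutathione transferases (-0.10) became 0.049 with array quality weights and 0.119 with libraries scaled to the reads on genes, and ran from -0.33 to 0.07 with livers left out. That of UDP-glucuronosyltransferases (-0.46) became -0.24 with that scaling. That of sulfotransferases (-0.44) became -0.19 with a minimum of 1 FPKM, 0.083 with no minimum, which adds genes near 0, -0.28 with a pseudocount of 1 FPKM and -0.23 with that scaling, and ran from -0.51 to -0.23 with livers left out. Uncalled genes changed sign as follows. Gstm1 was 0.088 with array quality weights, 0.130 with that scaling, and -0.33 to 0.176 with livers left out, being 0.0053 without METTL3-Flox replicate 2 and 0.0475 without METTL3-HKD replicate 2. Gsta3 was 0.031 with array quality weights, 0.080 with that scaling, and -0.37 to 0.069 with livers left out, being 0.0123 without METTL3-Flox replicate 2. Sult1b1 ran from -0.0652 to 0.2149 with livers left out, being -0.0535 without METTL3-Flox replicate 3, -0.0652 without METTL3-HKD replicate 3 and -0.0426 without METTL3-HKD replicate 4. Where no construction is named, the cause was not tested.

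Same-numbered livers did not deviate together (correlations of 0.0711, -0.0838, -0.0134 and -0.0339 for numbers 1 to 4), so the numbers do not pair them. With a replicate block, 1 UDP-glucuronosyltransferase was higher and 0 sulfotransferases were lower. Ugt2b37 (limma adjusted p = 0.0526) and Sult5a1 (0.0579) missed the threshold, and so did Ugt2b5 (0.0919). The count of lower UDP-glucuronosyltransferases stayed at 2, since a member not called without the block was called with it. The block called 971 genes higher and 645 lower in all. Depth limits Ugt1a7c, Ugt1a6a and Sult5a1, which rest on 5 to 164, 13 to 78 and 28 to 75 reads per liver.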
